A study of Mus musculus with 3 samples.

Results

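Ighd-positive B cells were picked out of mouse bone marrow nucleated cells by their transcripts, and 260 of the 31292 cells that passed the cell filters met the rule. Members were selected on their own raw counts of 4 genes. A member had at least 2 unique molecular identifiers (UMIs, each a counted mRNA molecule) of Ighd, the constant region of IgD, at least 1 of Ms4a1 (CD20) and at least 1 of Cd79a (a signalling chain of the B cell receptor), and none of Igll1, a surrogate light chain gene of early B precursors. Cells had at least 200 detected genes and at most 5% mitochondrial UMIs. The rule gave 130 cells in the Control library, 69 in the IR library and 61 in the IR+CBD library.

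Control mice received no irradiation, IR mice received 6.0 Gy of total body gamma irradiation with the solvent, and IR+CBD mice received the same dose with 50 mg/kg cannabidiol (CBD), a compound of Cannabis, injected before and after irradiation. The mice were male C57BL/6, and femoral marrow was taken at day 14 post irradiation. Each library pooled cells of 3 mice, sorted as Lin-Kit+, Lin-Kit- and Lin+ and remixed at 5:4:1, so the mixture fixed part of the B cell share. The remixing enriched progenitors, and shares given here are shares of that mixture and not of whole marrow. With 1 library per condition, no spread between mice was available, differences between libraries have no test, and all intervals cover counting error only (95%).

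B cells leaving the pre-B stage first carry IgM, and as they mature they add IgD by alternative splicing of the same heavy chain transcript. Immature cells keep transcripts of the precursor programme such as Vpreb3 and Cd93, whereas mature follicular cells carry CD23 (Fcer2a) and abundant MHC class II and recirculate between blood, lymphoid organs and marrow. Lymphocytes are among the most radiosensitive blood cells, and new B cells have to be made from surviving progenitors after irradiation.

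A subset of members also carried transcripts of another lineage. In 19 cells (6 Control, 4 IR and 9 IR+CBD) at least 50 UMIs came from a marker list of neutrophils, erythroid cells or progenitors, with genes such as S100a8, Hbb-bs and Mpo; these are called mixed cells below. These 19 cells had a median of 41725 UMIs and held 40.7% of all member UMIs (29.5% in the Control library, 34.1% in IR and 62.1% in IR+CBD), and 17 of the 19 were among the cells with the highest doublet scores. The other 241 cells (124 Control, 65 IR and 52 IR+CBD) had median depths of 3578, 3610 and 3154 UMIs, against 12642, 14407.5 and 12593.5 UMIs in all other cells of the 3 libraries. Neutrophil list transcripts summed to 53086, 555 and 41382 CPM (UMIs per 1000000 UMIs of the summed cells) over all members in Control, IR and IR+CBD, but to 928, 678 and 648 CPM in the 241 cells. T cell list genes had no UMI in the 241 cells, which allows up to 1.24% of them to carry one. Values below are for the 241 cells unless all members are named, because sums over all members were led by granulocyte genes; this choice was made after seeing the data, and counts over a gene list between libraries have their all-member values beside them.

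**Figure D1:**
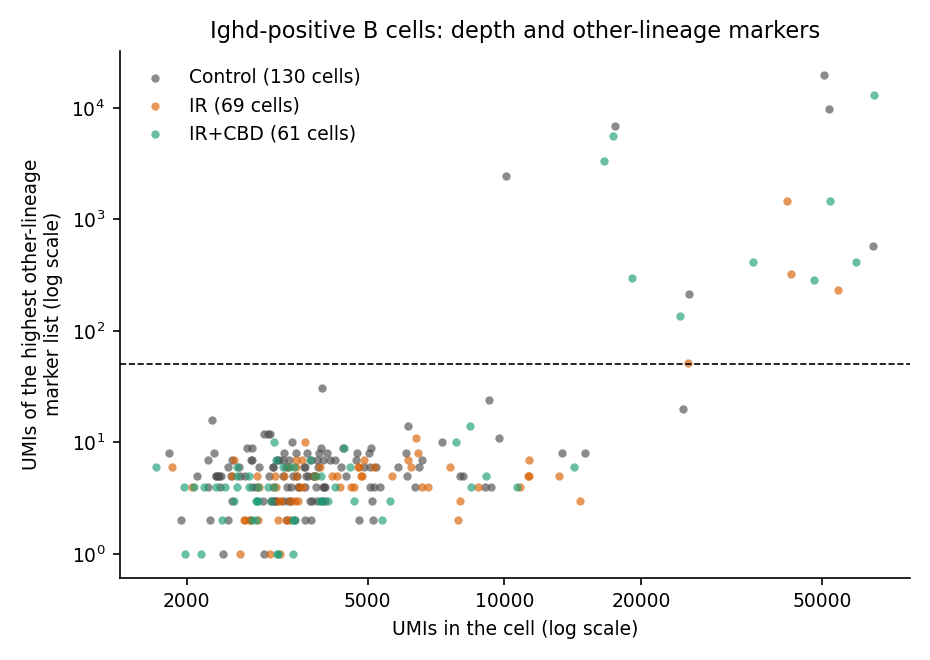
Each point is an Ighd-positive B cell, with its total UMIs on the x axis and the UMIs of its highest other-lineage marker list on the y axis (both log scales), coloured by library. The 19 cells above the dashed line at 50 UMIs include the deepest members, and the other 241 cells have a median of 3480 UMIs.

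The 241 cells carried the identity genes of the B lineage. Cd79b, the partner of Cd79a, was detected in 94.4%, 100% and 100% of the Control, IR and IR+CBD cells. Pax5, the transcription factor that holds B cell identity, was detected in 85.5%, 92.3% and 94.2%. For comparison, 863, 989 and 1123 cells had at least 10 UMIs of the granulocyte gene Ngp and none of Cd79a, Cd79b or Ms4a1 (below, granulocyte cells). In them Ighd was detected in 0.348%, 0.303% and 0.089% and Fcer2a in 0.116%, 0.101% and 0.267%. Leaving out cells with Cd79a, Cd79b or Ms4a1 removed those that had picked up these transcripts. The shares of B cell genes in granulocyte cells can thus understate free RNA and set no upper limit on it. The defining mature marker Fcer2a went against a uniform mature identity. It was present in 46.8% of Control cells (37.8% to 55.9%) but in 9.23% of IR cells (3.46% to 19.0%) and 13.5% of IR+CBD cells (5.59% to 25.8%). The members are therefore called Ighd-positive B cells, without the word mature.

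Over all members, mixed cells included, Ighd-positive B cells made up 1.22% of the Control library (1.02% to 1.44%). They made up 0.667% of the IR library (0.519% to 0.843%) and 0.594% of the IR+CBD library (0.454% to 0.762%). The share was lower in IR than in Control by a ratio of 0.548 (0.403 to 0.739) and in IR+CBD than in Control by 0.488 (0.354 to 0.666). IR+CBD over IR gave 0.890 (0.620 to 1.27), an interval that spans 1. Control and irradiated intervals did not overlap, while those of the 2 irradiated libraries did.

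Cells of the wider B cell class were not fewer in the irradiated libraries by 1 definition, but the remixing means that such counts do not measure the marrow pool. All cells with Cd79a numbered 3899, 4424 and 3827 in Control, IR and IR+CBD. Cells with Ms4a1 and Cd79a and without Igll1 numbered 821, 855 and 888 in Control, IR and IR+CBD. Of the cells with Ms4a1 and Cd79a and without Igll1, 15.8% in the Control library, 8.07% in IR and 6.87% in IR+CBD were Ighd-positive. All counts, shares and ratios in this paragraph include mixed cells. The size of the difference depended on the Ighd cut. With 1 Ighd UMI the IR over Control ratio was 0.769 (0.635 to 0.930) and the IR+CBD over Control ratio 0.834 (0.692 to 1.01), an interval that spans 1. The shares themselves then overlapped, with intervals of 2.14% to 2.74% in Control, 1.61% to 2.15% in IR and 1.76% to 2.32% in IR+CBD. The separation of Control from IR+CBD thus did not hold at this cut. With 3 UMIs the IR over Control ratio was 0.408 (0.262 to 0.621) and the IR+CBD over Control ratio 0.346 (0.215 to 0.541). With each cell reduced to 2000 UMIs before the rule was applied, 68, 21 and 21 members were left and these ratios were 0.316 (0.184 to 0.521) and 0.323 (0.188 to 0.534). Members with 4 or more Ighd UMIs numbered 45 in the Control library, 11 in IR and 6 in IR+CBD, with highest values of 15, 10 and 5.

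Cells just inside and just outside the Ighd threshold are described here without a test. In Control, H2-Aa, a chain of MHC class II, was detected in 25.3% of cells with no Ighd UMI, 52.6% with 1, 77.8% with 2 and 94.9% with 3 or more. The same steps in IR were 31.6%, 53%, 65.7% and 86.7%, and in IR+CBD 34.5%, 47.1%, 67.7% and 76.2%. Fcer2a in Control was detected in 6.52%, 22.4%, 33.3% and 54.4% of cells over the same steps, whereas in IR the values were 2.86%, 7.83%, 14.3% and 3.33%. In IR+CBD they were 3.10%, 2.90%, 9.68% and 19.0%, highest at 3 or more as in Control. Vpreb3 was detected in 63.3% of Control cells with 3 or more Ighd UMIs but in 93.3% of such cells in IR and 81.0% in IR+CBD. H2-Aa detection thus rose over the steps in each library, with no gap between members and non-members. Fcer2a did not rise at every step in the irradiated libraries. The top step held only 79 Control, 30 IR and 21 IR+CBD cells. Median depth was also greater at 3 or more Ighd UMIs than at none. It was 3657 against 2978 UMIs in Control, 4140 against 3082 in IR and 3068 against 2789 in IR+CBD. Whether depth contributed to these steps was not tested.

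Control had the highest levels of the 8 genes in the list of follicular markers, and of Gpr183 and Cr2, which were not in that list. For Gpr183 it stood apart from both irradiated libraries. Fcer2a, the low-affinity IgE receptor CD23, had 94 UMIs in the Control library, 8 in IR and 26 in IR+CBD, or 179, 25.2 and 127 CPM. The IR over Control ratio of Fcer2a was 0.141 (0.0592 to 0.290). The IR+CBD level of Fcer2a was spread over only 7 cells, of which 1 held 9 of the 26 UMIs, and its ratio to Control was 0.708 (0.440 to 1.10). The 5.02-fold ratio of IR+CBD over IR in Fcer2a therefore rests on few cells, and with cells reduced to 2000 UMIs before selection the IR+CBD members had none.

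Gpr183 (EBI2), the oxysterol receptor that positions B cells in follicles, was detected in 49.2% of Control cells, 6.15% of IR cells and 9.62% of IR+CBD cells, beside 0.927%, 1.21% and 0.623% of the granulocyte cells. At an equal depth of 2000 UMIs per cell its shares were 32.8%, 4.69% and 8.16%, and those of Fcer2a 29.5%, 4.69% and 6.12%. The level of Gpr183 was 219, 25.2 and 29.2 CPM, giving ratios to Control of 0.115 (0.0487 to 0.235) in IR and 0.134 (0.048 to 0.300) in IR+CBD. Gpr183 was high in Control and about level between the irradiated libraries.

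Cr2, the complement receptor CD21, was detected in 25% of Control cells, 9.23% of IR cells and 17.3% of IR+CBD cells, from 50, 9 and 10 UMIs. Its IR over Control ratio was 0.299 (0.129 to 0.613). Gpr183 came from a list of homing genes and Cr2 from a list of marginal zone genes. In IR over Control, 8 homing genes were higher and 12 lower (6 and 14 over all members). In IR+CBD over Control, 5 were higher and 14 lower (6 and 14 over all members). The marginal zone list had 2 higher and 2 lower in each comparison. Over all members it had 3 and 3 in IR, and 2 and 4 in IR+CBD. Klf2, a transcription factor of lymphocyte trafficking, had 515, 401 and 258 CPM. All 8 follicular marker genes with at least 20 UMIs, H2-Aa among them, had lower CPM than Control in IR (median log2 ratio -0.49) and in IR+CBD (median -0.73), where the median over all genes was 0.07 and 0.10. Of these 8, 2 in IR, Fcer2a among them, and 2 in IR+CBD, H2-Aa among them, were past 1.5-fold lower, counted where the interval bound nearest 1 lay beyond 1.5-fold. Over all genes with at least 50 UMIs, 1.08% were past 1.5-fold lower and 1.01% higher in IR over Control, and 1.26% lower and 1.77% higher in IR+CBD over Control. Over all members these background shares were 1.58% lower and 1.3% higher in IR over Control, and 1.95% lower and 1.61% higher in IR+CBD over Control. Over all members all 8 were again lower in both comparisons (medians -0.59 and -1.25), with 1 and 5 past 1.5-fold. Between IR+CBD and IR, 4 of the 8 were higher and 4 lower, but over all members 1 was higher and 7 lower (median -0.63). As a background for list counts here and below, 3332 of 5964 genes with at least 20 UMIs were higher in IR than in Control. In IR+CBD 3171 of 5514 were higher than in Control and 2414 of 4596 higher than in IR. Over all members these counts were 4324 of 7266, 4192 of 7427 and 3165 of 6861.

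Genes with the lowest IR over Control ratios included Apoe and Plaur. Apoe, a lipid carrier protein, had 89 UMIs in 38 Control cells against 1 UMI in IR and 2 in IR+CBD. Plaur, the urokinase receptor, had 88 UMIs in 45 Control cells and 1 UMI in each irradiated library. Their IR over Control ratios were 0.0186 (0.000467 to 0.107) for Apoe and 0.0189 (0.000472 to 0.108) for Plaur, each resting on a single IR molecule. Over all members the Apoe ratio was 0.927 (0.651 to 1.31), with 55 UMIs in IR, of which all but 1 came from mixed cells. Granulocyte cells carried Plaur in 96.3%, 95.9% and 96.2% and Apoe in 6.84%, 7.38% and 4.99%. Whether free RNA contributed to the shares of either gene was not tested. Cd83 and Cd86, surface proteins of activated B cells, also had lower IR levels, with 312, 101 and 175 CPM for Cd83 and 228, 91.5 and 87.7 CPM for Cd86. Bank1, a B cell scaffold protein of receptor signalling, had 1967, 997 and 1072 CPM and an IR over Control ratio of 0.507 (0.446 to 0.576).

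**Figure D2:**
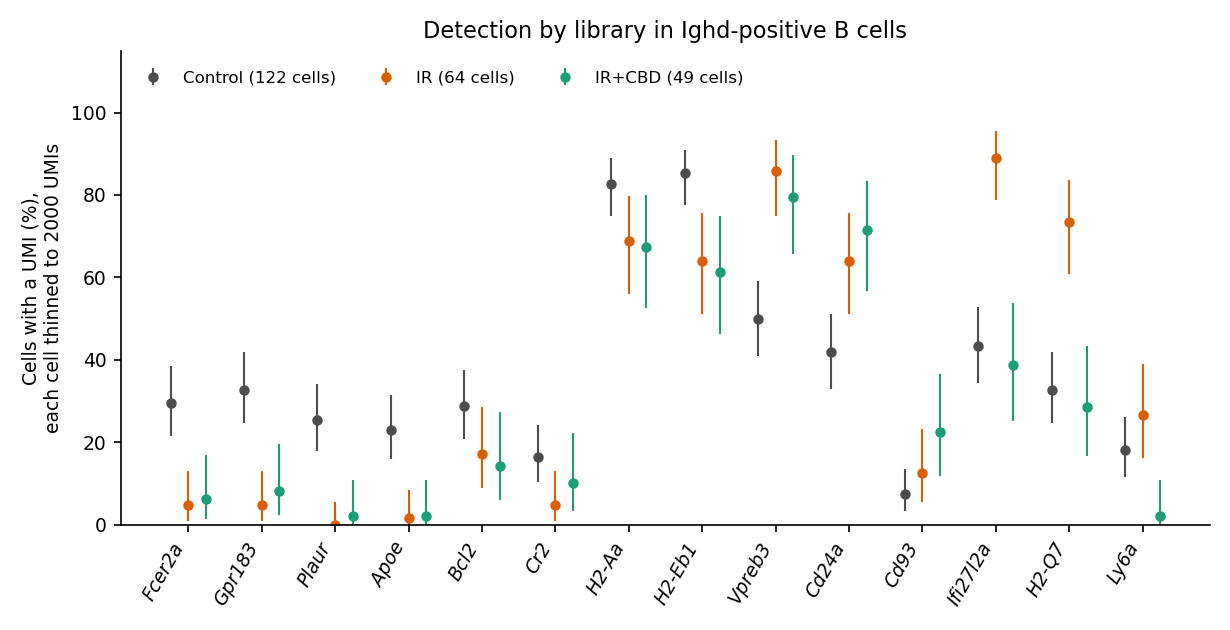
Share of Ighd-positive B cells (without the 19 cells of mixed lineage) with at least 1 UMI of each gene, by library, after each cell was thinned to 2000 UMIs. Bars are exact 95% binomial intervals. Fcer2a, Gpr183, Plaur and Apoe were highest in Control, Vpreb3, Cd24a and Cd93 in irradiated libraries, and Ifi27l2a and H2-Q7 in IR.

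Genes of B cell precursors showed the opposite order. Vpreb3, a gene of pre-B and immature B cells, had 290, 465 and 284 UMIs in Control, IR and IR+CBD, or 552, 1467 and 1384 CPM. It was detected in 62.9% of Control cells (53.8% to 71.4%), 93.8% of IR cells (85.0% to 98.3%) and 84.6% of IR+CBD cells (71.9% to 93.1%), beside 4.75%, 4.45% and 2.58% of the deeper granulocyte cells. The ratio to Control was 2.66 (2.29 to 3.09) in IR and 2.51 (2.12 to 2.96) in IR+CBD. At 2000 UMIs per cell its shares were 50%, 85.9% and 79.6%. Over all members the IR+CBD over Control ratio of Vpreb3 was 1.42, where the 9 mixed cells held 62.1% of the member UMIs of IR+CBD. Vpreb3 was high in both irradiated libraries.

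Cd93, the AA4.1 antigen of transitional B cells, had few molecules (20, 18 and 27 UMIs). It was detected in 12.1% of Control cells, 21.5% of IR cells and 38.5% of IR+CBD cells, against 7.76%, 5.66% and 6.23% of the granulocyte cells, and its IR+CBD over Control ratio was 3.46 (1.87 to 6.50). Cd24a, the heat-stable antigen that is high on immature B cells, was detected in 58.1%, 83.1% and 84.6% of cells (41.8%, 64.1% and 71.4% at 2000 UMIs per cell, beside 54.1%, 56.3% and 56.7% of granulocyte cells at that depth). Sox4, a transcription factor of early B cell development, had 93.2, 180 and 219 CPM.

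Of the 11 precursor genes with at least 20 UMIs, 10 had higher CPM than Control in IR (median log2 ratio 0.75) and all 11 in IR+CBD (median 0.91), with 3 past 1.5-fold higher in each. IR+CBD over IR had 6 higher and 5 lower. Over all members 10 of 11 were higher in IR (median 0.59) and 12 of 13 in IR+CBD (median 0.50) than in Control, with 2 past 1.5-fold higher in each, and IR+CBD over IR had 4 higher and 8 lower. The early genes of the list were scarce everywhere. Rag1, a recombinase subunit, was detected in 6, 4 and 7 cells, and Dntt, the enzyme that adds junctional bases, in 2 Control cells.

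Cells with 4 or more Vpreb3 UMIs or any Cd93 UMI were then counted, a split chosen after seeing the data. They made up 29 of 124 Control cells (23.4%, 16.3% to 31.8%), 46 of 65 IR cells (70.8%, 58.2% to 81.4%) and 34 of 52 IR+CBD cells (65.4%, 50.9% to 78.0%). Near this cut, 10, 15 and 3 cells had 3 or 4 Vpreb3 UMIs and no Cd93, so the split is a range and not a cell type. Among cells on the low side, Fcer2a was detected in 46.3% of 95 Control cells, 10.5% of 19 IR cells (1.3% to 33.1%) and 27.8% of 18 IR+CBD cells (9.69% to 53.5%). Gpr183 in the same cells was detected in 53.7%, 10.5% and 16.7%. The lower detection of both in IR was thus also seen among cells with few precursor transcripts, with wide intervals in the irradiated libraries.

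MHC class II molecules present peptide to helper T cells, and their genes are switched on as B cells mature. H2-Aa had 1113, 461 and 170 UMIs in Control, IR and IR+CBD, which is 2117, 1455 and 828 CPM, with ratios to Control of 0.687 (0.615 to 0.767) and 0.391 (0.331 to 0.460). H2-Ab1, its partner chain, had 1895, 1508 and 1067 CPM, and H2-Eb1 had 1799, 1240 and 794 CPM. These 3 chains were highest in Control and lowest in IR+CBD. Cd74, the invariant chain that loads class II, differed little, with 6817, 6643 and 5422 CPM. H2-DMb2, a subunit of the peptide exchange factor, had 226, 227 and 214 CPM. Ciita, the master regulator of the family, had 135, 101 and 63.3 CPM.

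Of 11 class II genes, 10 were lower in IR than in Control (median log2 ratio -0.54), of which 0 were past 1.5-fold lower. All 11 were lower in IR+CBD than in Control (median -1.05), of which 4 were past 1.5-fold. Over all members all 11 were lower in both comparisons (medians -0.63 and -1.64), with 0 and 8 past 1.5-fold. All 10 with at least 20 UMIs were lower in IR+CBD than in IR (median -0.50, and -0.95 over all members), and over all genes 0.732% were past 1.5-fold lower and 0.39% higher in that comparison (0.967% and 2.27% over all members). This last order did not hold under every choice. When members were chosen after reducing cells to 2000 UMIs, the class II median of IR+CBD over IR was 0.40, with 21 cells in each library, and the H2-Aa ratio was 1.20 (0.772 to 1.87). The IR library takes part in both comparisons, so these are not independent.

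Promoter sequence of the class II genes is shown because the Y box, a motif bound by NF-Y, is a known element of this family. RefSeq promoters (GRCm38.p6) were found for 8 of the 11 genes, and only the 250 bases before each start were searched. The letters CTGATTGG on either strand occurred in 4 of the 8, against 4.43% of 27025 promoters. The following 30-base windows, in the direction of the gene with the motif in capitals, lie at chr17:34287856-34287885 (- strand), chr17:34305794-34305823 (+ strand), chr17:34325561-34325590 (+ strand) and chr17:34092322-34092351 (+ strand), with the motif 51, 62, 103 and 46 bases before the start.
H2-Aa: aagagaattttCTGATTGGttctggcgagt
H2-Eb1: ctcctttgatgCTGATTGGctcccagcact
H2-Eb2: gctcttggctgCTGATTGGttcttcagcac
H2-Oa: agagaactgctCTGATTGGctgcttaccgc
A match is a description of these letters and not evidence of binding in these cells. All 4 genes had lower CPM than Control in both irradiated libraries.

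Class II and precursor transcripts ran in opposite directions from cell to cell. The median cell had 11.8, 35.4 and 36.5 precursor UMIs per 10000 UMIs in Control, IR and IR+CBD, and 164, 99.9 and 82.3 class II UMIs. Spearman's rho between the 2 sums was -0.45 over 124 Control cells, -0.49 over 65 IR cells and -0.55 over 52 IR+CBD cells. These are correlations across cells of 1 library, which share its depth and preparation, and they are given as a description.

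**Figure D3:**
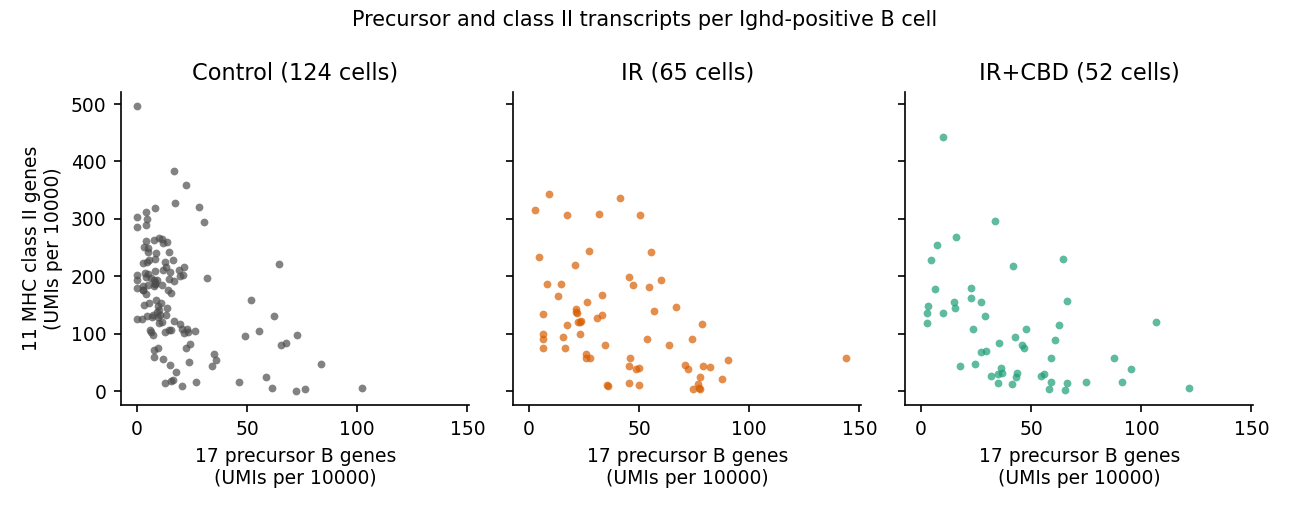
Each point is an Ighd-positive B cell without another lineage, with UMIs of 17 precursor B genes per 10000 UMIs on the x axis and UMIs of 11 MHC class II genes per 10000 on the y axis, in a panel per library. Control cells gather at the upper left (medians 11.8 and 164), and cells of IR and IR+CBD extend to the lower right (precursor medians 35.4 and 36.5).

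Most interferon response genes with at least 20 UMIs had higher levels in the IR library than in the other libraries. Ifi27l2a, an interferon-induced gene, had 215 UMIs in the Control library, 908 in IR and 104 in IR+CBD, or 409, 2865 and 507 CPM. It was detected in 49.2% of Control cells, 93.8% of IR cells and 48.1% of IR+CBD cells. The IR over Control ratio was 7.01 (6.03 to 8.17) and the IR+CBD over IR ratio 0.177 (0.143 to 0.217), while IR+CBD over Control was 1.24 (0.971 to 1.57). A single IR cell held 114 of the 908 UMIs. Isg15, a ubiquitin-like interferon product, was detected in 0.806% of Control and 12.3% of IR cells and in 0 of 52 IR+CBD cells, which allows up to 5.77%. These Isg15 shares lay below those of the granulocyte cells (15.4%, 54.6% and 13.2%) at their greater depth, and whether free RNA contributed was not tested.

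The same difference was present outside the Ighd-positive cells. Ifi27l2a was detected in 43.1%, 91.4% and 53.9% of Ighd-negative B cells, and in 18.9%, 61.0% and 13.4% of the granulocyte cells rich in Ngp. At 2000 UMIs per cell the Ighd-positive shares were 43.4%, 89.1% and 38.8%. Whether free RNA contributed to the share in B cells was not tested. Median depth in IR was 3610 UMIs in the Ighd-positive cells and 11388 in the granulocyte cells. The granulocyte cells may express Ifi27l2a themselves, so their shares do not gauge free RNA of this gene.

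Of 38 interferon response genes with at least 20 UMIs, 34 were higher in IR than in Control (median log2 ratio 0.84), 4 of them past 1.5-fold. Over all members 42 of 46 were higher (median 0.98). Of all genes with at least 20 UMIs, 3332 of 5964 were higher, and 1.01% of those with at least 50 were past 1.5-fold higher. In IR+CBD over IR, 30 of 34 interferon genes were lower (median -0.72), beside 2182 of 4596 of all genes, and over all members 40 of 42 (median -1.11). In IR+CBD over Control, 19 of 32 were higher and 13 lower (median 0.27), near the share of all genes with at least 20 UMIs (3171 of 5514 higher). The direction of that last median depended on the cells used: over all members 14 of 37 were higher and the median was -0.14. Trim30a, an interferon-induced regulator of innate signalling, had 74.2, 240 and 156 CPM. Ly6a (Sca-1) had 105, 234 and 19.5 CPM, and its 4 UMIs in IR+CBD came from 2 cells. Ly6a was lower in IR+CBD than in Control as well, unlike Ifi27l2a.

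MHC class I genes, which present peptide to cytotoxic T cells and respond to interferon, followed the same order. B2m, the shared light chain, had 1293, 2234 and 1452 CPM with an IR over Control ratio of 1.73 (1.55 to 1.92). H2-Q7, a non-classical class I gene, was detected in 46.8%, 87.7% and 44.2% of cells, beside 6.84%, 33.2% and 9.71% of granulocyte cells, and its IR over Control ratio was 3.35 (2.62 to 4.32). It shares sequence with H2-Q6 and other members of its cluster, and reads between such copies can be miscounted. H2-D1 and H2-K1, the classical heavy chains, had IR over Control ratios of 1.70 (1.5 to 1.93) and 1.67 (1.45 to 1.91). Of 18 class I pathway genes, 17 were higher in IR than in Control (median log2 ratio 0.73) and 17 were lower in IR+CBD than in IR (median -0.60). In IR+CBD over Control 11 were higher (median 0.13), near the share of all genes with at least 20 UMIs (3171 of 5514). Over all members 19 of 19 were higher in IR than in Control, 16 of 18 lower in IR+CBD than in IR, and 13 of 18 higher in IR+CBD than in Control (medians 0.82, -0.58 and 0.32).

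Interferon-stimulated response elements are shown for Isg15 and Ifi213 of the interferon list, picked as examples after the motif search. The letters GAAA, any 2 bases, and GAAA again on either strand occurred in 26 of the 55 interferon response genes with a RefSeq promoter (47.3%; 69 genes in the list), against 3.46% of all 27025 promoters. The windows lie at chr4:156200876-156200905 (- strand) and chr1:173599325-173599354 (- strand) of GRCm38.p6. The first match in each promoter is in capitals, 78 and 73 bases before the start. In the Isg15 window a further match of the same letters starts inside the capitals and runs on in lower case.
Isg15: atgccgtagGAAAAGGAAAccgaaacagaa
Ifi213: gtctctgagGAAATCGAAAgctatgaacct
None of the 8 class II promoters held these letters and none of the 55 interferon promoters held the Y box letters, which says nothing of other forms of either element.

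**Figure D4:**
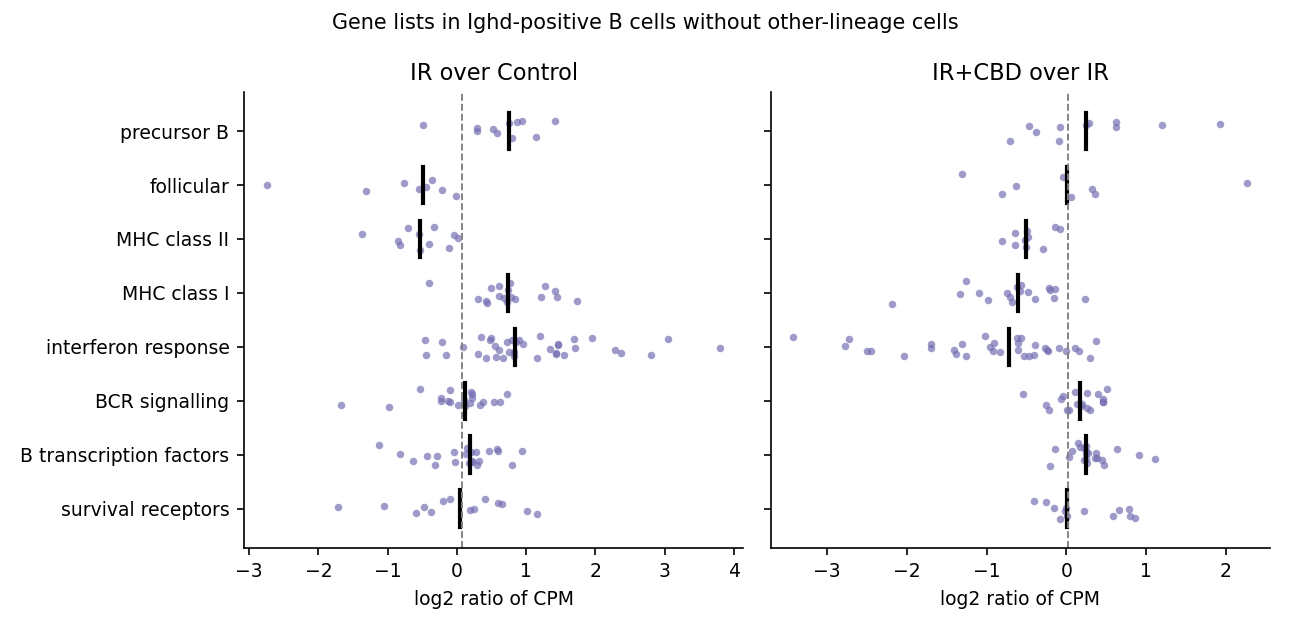
Log2 ratio of CPM (pseudocount 0.5 UMI) for each gene of 8 lists with at least 20 UMIs in the compared libraries, IR over Control on the left and IR+CBD over IR on the right, in the 241 cells. Black bars are list medians and the dashed line is the median of all genes (0.07 and 0.02). Interferon response and class I genes lie to the right for IR over Control (medians 0.84 and 0.73) and to the left for IR+CBD over IR (-0.72 and -0.60).

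IgM and IgD transcripts are given as a description, since the rule selected cells on Ighd and so sets part of their ratio. Ighm had 1548, 1348 and 988 UMIs in Control, IR and IR+CBD, and Ighd had 436, 184 and 129. Ighm molecules per Ighd molecule were 3.55 in Control (3.19 to 3.96), 7.33 in IR (6.28 to 8.59) and 7.66 in IR+CBD (6.37 to 9.27). All members gave 3.63, 7.41 and 7.64. At the stricter cut of 3 Ighd UMIs the ratios were 2.87, 5.83 and 5.66, in the same order against Control.

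Lambda light chain transcripts outnumbered kappa in 21.8% of Control cells (14.9% to 30.1%), 44.6% of IR cells (32.3% to 57.5%) and 36.5% of IR+CBD cells (23.6% to 51.0%). In Ighd-negative B cells the same shares were 43.1%, 44.9% and 41.3%, so Control Ighd-positive cells were the low group. The 3 lambda constant genes Iglc1, Iglc2 and Iglc3 are close copies, and Igkc was also detected in 18.3%, 17.4% and 18.4% of granulocyte cells, so these shares are of transcripts and not of expressed receptors. Cells with at least 4 times as many lambda as kappa UMIs were 11.3%, 21.5% and 21.2%. Class-switched heavy chain transcripts were few, with 10 UMIs in IR, 3 in IR+CBD and none in 124 Control cells. V gene transcripts were sparse, with 26, 12 and 13 heavy chain V genes seen in 28, 12 and 15 cells.

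Other parts of the B cell programme were mixed, and several list directions changed with the cells used. Among 20 B cell receptor signalling genes, 12 were higher and 8 lower in IR than in Control (median 0.11), but over all members 8 were higher and 12 lower (median -0.06). Among 22 B cell transcription factors, 14 were higher in IR and 17 in IR+CBD than in Control (medians 0.20 and 0.47). Of all genes with at least 20 UMIs, 3332 of 5964 were higher in IR and 3171 of 5514 in IR+CBD than in Control. The IR counts of both lists lay near that share. Over all members 13 transcription factors were higher in IR but only 9 in IR+CBD, where the median turned to -0.07. Spib, an Ets factor of B cells, had 211, 404 and 526 CPM, and Ebf1, which specifies the lineage, had 4240, 4926 and 6723 CPM. Bcl2, the survival protein, had 213, 164 and 136 CPM, with an IR over Control ratio of 0.770 (0.543 to 1.08). Tnfrsf13c, the BAFF receptor, had 243, 366 and 361 CPM. Cxcr4, the receptor that holds B cells in marrow, had 137, 72.6 and 190 CPM, and its IR+CBD over IR ratio was 2.62 (1.52 to 4.59).

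Targets of p53 had few UMIs. Cdkn1a, the cell cycle inhibitor p21, had 11, 5 and 1 UMIs, and Mdm2, the p53 inhibitor, had 36, 37 and 15. Cnr2, the cannabinoid receptor of leukocytes, was detected in 29.0%, 41.5% and 19.2% of cells, beside 25%, 19.1% and 23.2% of the deeper granulocyte cells. At 2000 UMIs per cell these shares were 19.7%, 28.1% and 12.2% against 5%, 3.76% and 6.04%. Cell cycle genes had higher sums in IR than in Control (18 of 21, median 0.61) and lower in IR+CBD than in IR (17 of 17, median -1.25). Over all members the first comparison kept its direction (25 of 27, median 0.47), but IR+CBD over IR had 13 higher and 14 lower (median -0.03), and IR+CBD over Control turned from 16 of 18 lower to 24 of 27 higher. In the 241 cells the sums rested on few cells: 4, 6 and 2 cells had 100 or more cell cycle UMIs, and Mki67 was detected in 13.7%, 13.8% and 11.5% of cells.

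Ighd-positive B cells were then compared with Ighd-negative B cells (Ms4a1 and Cd79a present, Igll1 and Ighd absent; 562, 662 and 680 cells) within each library. Summed UMIs were fitted by edgeR's quasi-likelihood test with the library as a block, so the class difference was replicated over 3 libraries that differ in treatment. A cell without an Ighd UMI may still express Ighd, and without mixed cells the median depth was 3578, 3610 and 3154 UMIs in the Ighd-positive class and 2978, 3082 and 2789 in the Ighd-negative class. Over all members 12 genes were higher and 3 lower at an adjusted p under 0.05 of 10503 tested (0.114% and 0.0286%), the rule's own genes left out. Without mixed cells in either class 127 were higher and 54 lower of 8933 (1.42% and 0.605%). Leaving out the Control library from the all-member fit left 1 higher and 6 lower, leaving out IR 2 and 1, and leaving out IR+CBD 27 and 18.

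All 11 MHC class II genes were higher in Ighd-positive cells in the fit without mixed cells, with a median log2 fold change of 1.49, against 2 of 11 (median 1.63) over all members. H2-Eb1 had a log2 fold change of 2.24 (SE 0.20, adjusted p = 1.59e-05 by edgeR), with 1799 against 238 CPM in Control, 1240 against 289 in IR and 794 against 253 in IR+CBD. H2-Aa had a log2 fold change of 2.0 (SE 0.25, adjusted p = 0.00031 by edgeR). Over all members H2-Eb1 also passed (2.40, adjusted p = 0.0369), whereas H2-Aa did not (2.16, adjusted p = 0.0943). Class II levels were thus higher in the Ighd-positive cells of each library, the irradiated ones included.

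Of 8 follicular marker genes, 6 were higher in Ighd-positive cells without mixed cells and 2 over all members. Fcer2a had a log2 fold change of 2.36 (SE 0.28, adjusted p = 0.000288 by edgeR) and 2.64 over all members (adjusted p = 0.0056). Its CPM was 179 against 33.1 in Control, 25.2 against 11.3 in IR and 127 against 15.9 in IR+CBD. Cr2 and Gpr183 were not in that list. Cr2 had a log2 fold change of 2.38 (SE 0.32, adjusted p = 0.000725 by edgeR). Gpr183 had 219 against 15.0 CPM in Control but 25.2 against 14.1 in IR and 29.2 against 13.4 in IR+CBD, with a log2 fold change of 2.54 (adjusted p = 0.00541) that did not pass over all members (2.29, adjusted p = 0.137). The difference of these effects between libraries was not tested.

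Several further genes were higher in Ighd-positive cells of all 3 libraries. Bcl2 had a log2 fold change of 1.73 (SE 0.18, adjusted p = 6.85e-05) but 0.81 over all members (adjusted p = 0.0970), and Cd83 of 1.73 with 1.82 over all members (adjusted p = 0.0369). Egr3, an immediate early gene induced by receptor signalling, had 2.20 and 2.70 over all members (adjusted p = 0.0479). Gpr174, a lysophosphatidylserine receptor of lymphocytes, led the genes called higher without mixed cells, with a log2 fold change of 3.22 (SE 0.47), but did not pass over all members (3.04, adjusted p = 0.120).

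Of 14 precursor genes tested, 4 were lower in Ighd-positive cells without mixed cells. Vpreb3 fell by 1.14 on the log2 scale (SE 0.19, adjusted p = 0.00372), with 552 against 1891 CPM in Control, 1467 against 2685 in IR and 1384 against 2299 in IR+CBD. The all-member estimate of Vpreb3 was -0.92 and did not pass (adjusted p = 0.132). Sox4, Tifa and Chchd10 were the other three. Cd93 did not pass (-0.41, adjusted p = 0.581) and was higher in the Ighd-positive cells of IR+CBD, with 132 against 94.3 CPM. Cd72, a coreceptor that dampens receptor signalling, was lower by a log2 change of -0.78. Jchain, the joining chain of secreted antibody, had the lowest value, -7.98, but a few cells of the Ighd-negative class held its molecules: in Control 14 of 506 cells held 6869 Jchain UMIs.

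**Figure D5:**
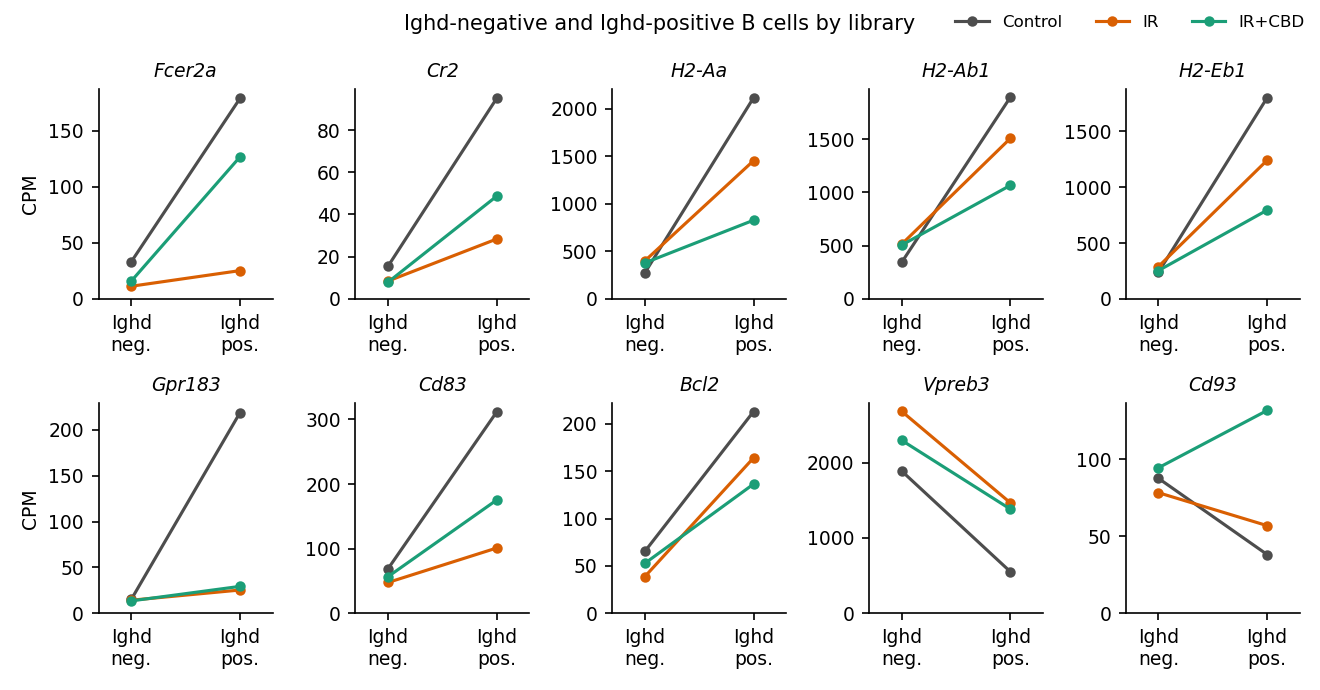
Summed CPM of 10 genes in Ighd-negative and Ighd-positive B cells without mixed cells, each line joining the 2 classes of 1 library. The class II genes, Fcer2a, Cr2, Gpr183, Cd83 and Bcl2 were higher in the Ighd-positive class of every library, Vpreb3 was lower in every library, and Cd93 was lower in Control and IR but higher in IR+CBD.

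Against all other cells of the mixture, 1496 genes were higher and 2684 lower over all members of 19766 tested (7.57% and 13.6%), and without mixed cells the shares were 10.1% higher and 20% lower. The large log2 fold changes of B lineage genes in this contrast follow from the choice of B cells. Among the highest fold changes, Fcer2a had 134 against 1.15 CPM in Control, 27.0 against 0.307 in IR and 57.2 against 0.399 in IR+CBD over all members, a log2 fold change of 6.68 (SE 0.36, adjusted p = 9.17e-76 by edgeR). Rgs13, a regulator of G protein signalling known from germinal centre B cells, had a log2 fold change of 6.87 in the 241 cells and was highest in IR, with 15.2, 78.9 and 29.2 CPM. Markers of B-1 and plasma cells were mixed. Cd5, a marker of B-1 cells, was detected in 1 cell of each library, and Sdc1, a plasma cell marker, in 2, 1 and 1 cells. Of 8 B-1 genes tested in the 241 cells, 1 was higher (Bhlhe41) and 3 lower than in all other cells. Of 8 plasma cell genes, 1 was higher (Txndc5) and 2 lower. Transcripts of the plasma cell list had a median of 0, 1 and 1 UMIs per cell.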

How the data were processed

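Single-cell 3′ RNA-seq of 3 libraries gave deposited UMI counts per gene and cell, unnormalized. The submitters' processing notes name Cell Ranger 4.0 and GRCm39, while the authors' file headers give Cell Ranger 7.0.1, whose default settings include intronic reads. Libraries held 199383228, 206932522 and 177806843 UMIs in 12200, 11951 and 11884 barcodes. Members and gene lists were chosen with earlier results of these data known. Counts of member cells were summed per library. CPM ratios had exact conditional binomial intervals, and shares exact Clopper-Pearson intervals. Class comparisons used edgeR 4.0.16 (R 4.3.3; TMM, filterByExpr, library block, Benjamini-Hochberg), tested on simulated data; DESeq2 1.42.0 was an alternative. The 3 libraries come from pools, so p-values measure the spread of the class difference over 3 differently treated libraries. Doublets were scored with Scrublet (scanpy 1.11.5) and kept in the main analysis. Barcodes shared between libraries numbered 35, 41 and 51, and 1 IR member barcode recurred in IR+CBD. Named genes were rule and list genes, and the 10 most extreme per direction and comparison; which list genes are described in full was partly chosen after their values were seen. Other thresholds, thinning to 2000 UMIs, scalings and left-out libraries were tried. Results for some genes are not reported here.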

Additional observations from a re-analysis of the deposited data

How the results depend on the processing

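Members were few and each condition was 1 library, so directions between libraries hold for these pools only, and genes with under 20 UMIs could not be compared. No paired analysis was possible because each condition is 1 library and the labels give no shared replicate numbers. A mean of per-cell CPM gives no interval, so genes past 1.5-fold were not counted with it. Main values in this section are over all members. Of the summary results under the alternatives, 209 stayed inside the main interval or, for counts of genes, within 1.5-fold of the main count. Another 82 moved and 1 reversed. Of the single-gene values, 703 stayed, 153 moved outside the main interval and 3 reversed. In 36 further cases a gene passed the main test but not the alternative, and in 70 it passed only the alternative. A reversal was counted only where the main interval left out no change or the main test passed. Other changes of direction are therefore not in these counts. For example, the share ratio of IR+CBD over IR was 0.890 but 1.09 with 1 Ighd UMI, inside its interval. Cells with 50 or more UMIs of another lineage were left out as an alternative chosen after seeing the data.

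The share ratio of IR over Control (0.548) was 0.769 with 1 Ighd UMI and 0.316 when thinned to 2000 UMIs, and that of IR+CBD over Control (0.488) was 0.834, 0.346 with 3 Ighd UMIs, and 0.323 when thinned. Ighm per Ighd at 3 UMIs was 2.87, 5.83 and 5.66 in Control, IR and IR+CBD.

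Genes past 1.5-fold over all members were 55 higher and 67 lower in IR over Control. They were 7 and 9 when thinned, 32 and 34 without mixed cells, 27 and 101 with TMM scaling and 95 and 118 at a minimum of 20 UMIs, with 120 lower at 1 Ighd UMI. For IR+CBD over IR (87 and 37) they were 8 and 13 without high Scrublet scores, 0 and 2 thinned, 8 and 15 without mixed cells, and 153 and 76 at 20 UMIs, with 99 lower at 3 Ighd UMIs. For IR+CBD over Control (71 and 86) they were 28 and 56 at 1 Ighd UMI, 132 and 140 at 3, and 11 and 3 thinned, with 120 higher at 20 UMIs, 49 lower without high Scrublet scores and 35 lower without mixed cells.

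The interferon median of IR over Control (0.98) was 0.66 thinned (-0.769 to 1.04). For IR+CBD over IR, the class II median (-0.95) was -0.40 at 1 Ighd UMI, -1.66 at 3, -0.49 without high Scrublet scores, -0.50 without mixed cells and reversed to 0.40 thinned, where the H2-Aa ratio was 1.20 and the Fcer2a ratio 0. The interferon median (-1.11) was -1.44 at 3 UMIs, -0.83 without high Scrublet scores, -0.175 thinned (-2.19 to 1.05) and -0.72 without mixed cells. For IR+CBD over Control, class II (-1.64) was -0.96, -2.075, -0.744 and -0.94 at 1 UMI, at 3 UMIs, without high Scrublet scores and thinned. Interferon (-0.14) was 0.14, -0.77, 0.55 and 0.27 at 1 UMI, at 3 UMIs, without high Scrublet scores and without mixed cells. Precursor genes (0.50) were 1.41 without high Scrublet scores and 1.28 thinned, and follicular genes (-1.25) were -0.749 at 1 UMI, -0.485 without high Scrublet scores and -0.73 without mixed cells. The causes were not tested.

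Against Ighd-negative B cells, the 12 genes higher and 3 lower were 53 and 9 with DESeq2, 148 and 207 with no count filter, 2 and 0 without the library block, 85 and 32 without high Scrublet scores, 41 and 27 thinned, and 127 and 54 without mixed cells. Leaving out a library gave 1 to 27 higher and 1 to 18 lower. Jchain reversed to 0.78 without high Scrublet scores (adjusted p = 0.682 by edgeR). Against all other cells, 1328 genes were lower with DESeq2, 407 higher and 1160 lower thinned, and 893 to 1273 higher and 1304 to 2397 lower with a library left out.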
